A study of Mus musculus with 2 samples.

Results

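Matrix metalloproteinase (MMP), TIMP, ADAM and ADAMTS genes were examined in RNA-seq of mouse mammary basal cells grown in 3D culture with or without TNF-α. The members were taken by gene name alone, as all genes of the count table called Mmp, Timp, Adam or Adamts and a number, which gave 79 of 49492 genes. They comprised 23 MMP, 4 TIMP, 33 ADAM and 19 ADAMTS genes. The study asked how TNF-α, a cytokine made by macrophages, acts on mammary basal cells, the outer layer of the mammary epithelium that holds its stem cells. The cells came from wild-type (WT) adult female mice, were sorted as lin-CD24+CD29hi cells and were cultured in matrix gel for 10 days, either untreated or with 10 ng/mL mouse TNF-α. Each condition had 1 library, so no difference below has a replicate check in these data, and each describes 2 libraries. How many mice or cultures went into a library is not given in the sources used here. The matrix gel is itself a basement membrane material, the kind of matrix on which several of these enzymes act.

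MMPs are zinc enzymes that cut the proteins of the extracellular matrix, and most are made as inactive precursors. TIMPs are their secreted inhibitors, ADAMs are membrane enzymes that release the outer parts of surface proteins, and ADAMTS enzymes are secreted and cut proteoglycans and procollagens. In the mammary gland these enzymes are known for their part in duct branching and in the remodelling of the gland after weaning.

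Counts summed to 44462275 without and 53487087 with TNF-α, and every CPM value below is scaled by TMM, under which the treated library was 1.20 times the size of the untreated one. Log2 ratios were computed from CPM, while TPM, which also divides by the exon length of a gene, served to compare levels between genes. A gene was called higher or lower where it differed more than 2-fold and the 95% interval of its counts excluded no change. This interval covers counting error only and not the spread between cultures. In bulk RNA, fewer cells of a type and less RNA per cell cannot be told apart. The study measured Mmp3, Ccl2, Ccl7 and Tnfrsf1b by qPCR with replicates and reported them higher. Its figure legend names TNF-α treated cells for this, while its text names cells co-cultured with macrophages. Of these genes, Ccl2, Ccl7 and Tnfrsf1b served here to check the treatment. All were higher with TNF-α, with 16 and 1113 counts for the chemokine gene Ccl2, 6 and 219 for Ccl7, and 18 and 207 for the TNF receptor gene Tnfrsf1b.

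Cell type markers were summed as CPM to describe the cultures. The 8 basal markers summed to 11973 CPM in the control and 11040 in the TNF-α library, and the oxytocin receptor gene Oxtr was the only one called, as lower. Their median log2 ratio was -0.14, with 3 above 0 and 5 below. Krt17, Krt5, Trp63 and Krt14 lay at 0.31, 0.16, 0.03 and -0.08. The contractile genes Acta2, Myh11 and Cnn1 lay at -0.20, -0.52 and -0.74, and Oxtr at -1.19. The 9 luminal markers summed to 4249 and 3451 CPM, with Prlr, Esr1 and Pgr called lower. Their median log2 ratio was -0.84, with 8 of the 9 below 0 and 1 above. The 8 fibroblast markers summed to 517 and 496 CPM, and Dcn alone was called, as higher. The 9 macrophage and leukocyte markers summed to 8.23 and 6.54 CPM, 5 of them reached 10 counts, and 0 were called. Those 5 were Lyz2 with 114 counts in the control and 109 with TNF-α, Csf1r with 92 and 81, Cd68 with 83 and 75, Itgam with 50 and 40, and Ptprc with 26 and 38. Of the others, Cd3e and Ly6g had 0 counts in both libraries, and the macrophage marker Adgre1 had 0 counts in the control and 2 with TNF-α. The 5 endothelial markers summed to 7.34 and 6.93 CPM, with 0 called.

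Promoter sequences of 5 genes are shown first because they belong to the Mmp cluster on chromosome 9, which holds 4 of the 13 members called higher with TNF-α. RefSeq windows on GRCm38.p6 that run from 250 bases before to 50 bases after a start site were searched on both strands for the AP-1 motif TGACTCA, which reads TGAGTCA on the other strand, for TATAAA, which reads TTTATA there, and for the consensus of NF-κB. Capitals mark the matches, and all 5 windows are written 5′ to 3′ on the + strand. The windows are chr9:7445572-7445871 for Mmp3, chr9:7502092-7502391 for Mmp10, chr9:7272264-7272563 for Mmp13, chr9:7347124-7347423 for Mmp12, and chr9:7558179-7558478 for Mmp8, which was not called and serves as the contrast.
Mmp3: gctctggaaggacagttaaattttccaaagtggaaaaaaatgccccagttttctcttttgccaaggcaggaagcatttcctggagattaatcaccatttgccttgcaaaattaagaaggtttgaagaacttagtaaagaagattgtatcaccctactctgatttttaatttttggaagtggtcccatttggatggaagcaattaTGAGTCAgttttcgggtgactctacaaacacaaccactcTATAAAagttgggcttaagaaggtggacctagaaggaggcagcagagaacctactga
Mmp10: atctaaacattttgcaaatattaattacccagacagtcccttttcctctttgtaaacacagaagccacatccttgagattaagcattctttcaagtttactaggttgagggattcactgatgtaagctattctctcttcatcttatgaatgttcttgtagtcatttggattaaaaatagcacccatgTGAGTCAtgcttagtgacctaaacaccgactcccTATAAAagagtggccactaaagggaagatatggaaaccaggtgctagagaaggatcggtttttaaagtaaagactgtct
Mmp13: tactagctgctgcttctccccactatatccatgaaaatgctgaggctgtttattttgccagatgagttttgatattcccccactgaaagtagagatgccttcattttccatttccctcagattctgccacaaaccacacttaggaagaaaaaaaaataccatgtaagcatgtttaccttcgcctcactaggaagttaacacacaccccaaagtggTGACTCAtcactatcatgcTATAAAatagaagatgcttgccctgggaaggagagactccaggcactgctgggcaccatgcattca
Mmp12: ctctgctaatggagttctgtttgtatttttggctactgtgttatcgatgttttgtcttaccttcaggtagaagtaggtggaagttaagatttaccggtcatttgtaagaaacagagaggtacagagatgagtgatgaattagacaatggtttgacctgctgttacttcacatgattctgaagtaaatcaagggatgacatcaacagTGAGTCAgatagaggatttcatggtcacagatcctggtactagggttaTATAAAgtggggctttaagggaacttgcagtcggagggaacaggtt
Mmp8: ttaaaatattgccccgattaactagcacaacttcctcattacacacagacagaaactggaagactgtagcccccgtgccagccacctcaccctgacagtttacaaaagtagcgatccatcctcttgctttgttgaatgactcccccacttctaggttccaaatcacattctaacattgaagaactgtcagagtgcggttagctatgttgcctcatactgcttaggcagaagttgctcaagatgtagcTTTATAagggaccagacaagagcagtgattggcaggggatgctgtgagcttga

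The AP-1 motif began 46 bases before the RefSeq start site in Mmp3, 63 bases before it in Mmp10, 35 bases before it in Mmp13 and 44 bases before it in Mmp12. Each of these windows also held TATAAA, at differing distances from the start site. It began 7 bases before that site in Mmp3, 29 in Mmp10 and 16 in Mmp13, and 4 bases after it in Mmp12. The Mmp8 window held TATAAA on the other strand and no AP-1 motif. Mmp12 has a further RefSeq window, which held neither of these motifs but 1 match to the NF-κB consensus.

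Of the 10 Mmp genes of the cluster, 7 had a window with both AP-1 and TATAAA, namely Mmp13, Mmp12, Mmp1b, Mmp3, Mmp1a, Mmp10 and Mmp7. Over all 32851 RefSeq windows 309 held both, or 0.941%. Mmp1a, Mmp1b and Mmp7 carried the same letters and had at most 4 counts in either library. Genes of the cluster are related copies, so their windows are not independent of each other.

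RefSeq windows were matched for 49 of the 79 members and for 9 of the 13 called higher. The AP-1 motif was in 5.2% of all windows, in 18.5% of the 54 windows of members, and in 4 of the 9 matched genes called higher, which were the 4 of the cluster. The consensus of NF-κB was in 8.46% of all windows and in 3 of those 9 genes, namely Adamts20, Adamts9 and Mmp12. TATAAA was in 13.6% of all windows and in 4 of those 9 genes, again the 4 of the cluster. Counted by gene, the shares over all genes with a window were 5.95% for AP-1, 9.55% for NF-κB and 15.7% for TATAAA. Of the 26 matched members compared but not called higher, Adam19 and Adam1b held AP-1. NF-κB matches were in Adam19, Adam1b and Mmp25, and TATAAA was in Adamts1 and Mmp8. A match is a stretch of letters and was not tested for binding.

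Of the 79 members, 17 had 0 counts in both libraries, 5 had 1 to 9 counts in sum, and 57 had at least 10 and were compared. A count of 0 allows a level of up to 0.0673 CPM in the control and 0.0562 CPM in the TNF-α library, which corresponds to 3 counts. With TNF-α, 13 of the 57 were called higher (22.8%), where 7.39% of all 20771 genes compared were called higher. Called lower were 5 members (8.77%) against 5.89% of all genes, a share closer to that of all genes. With at least 200 counts in sum, 10 of 38 members were higher (26.3%) against 4.01% of all genes, and 2 were lower (5.26%) against 2.87%. That filter sums both libraries, so a gene can pass it through its TNF-α counts alone. Among the 10, Mmp3, Mmp10, Mmp13 and Adamts14 had only 46, 8, 22 and 75 counts in the control. The share of 26.3% is therefore no separate support for the one of 22.8%. The median log2 ratio was 0.29 over the 57 members and 0.0038 over all genes compared, and 35 members lay above 0 and 22 below.

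The calls were unevenly spread over the families. Among MMPs 5 of 17 compared were higher and 2 lower, among ADAMTS genes 7 of 17 were higher and 2 lower, among TIMPs 1 of 4 was higher, and among ADAMs 0 of 19 were higher and 1 was lower. The difference between families was not tested, as genes are not replicates of a condition. The median log2 ratio was 0.78 for ADAMTS genes, 0.48 for TIMPs, 0.29 for MMPs and 0.04 for ADAMs.

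**Figure D1:**
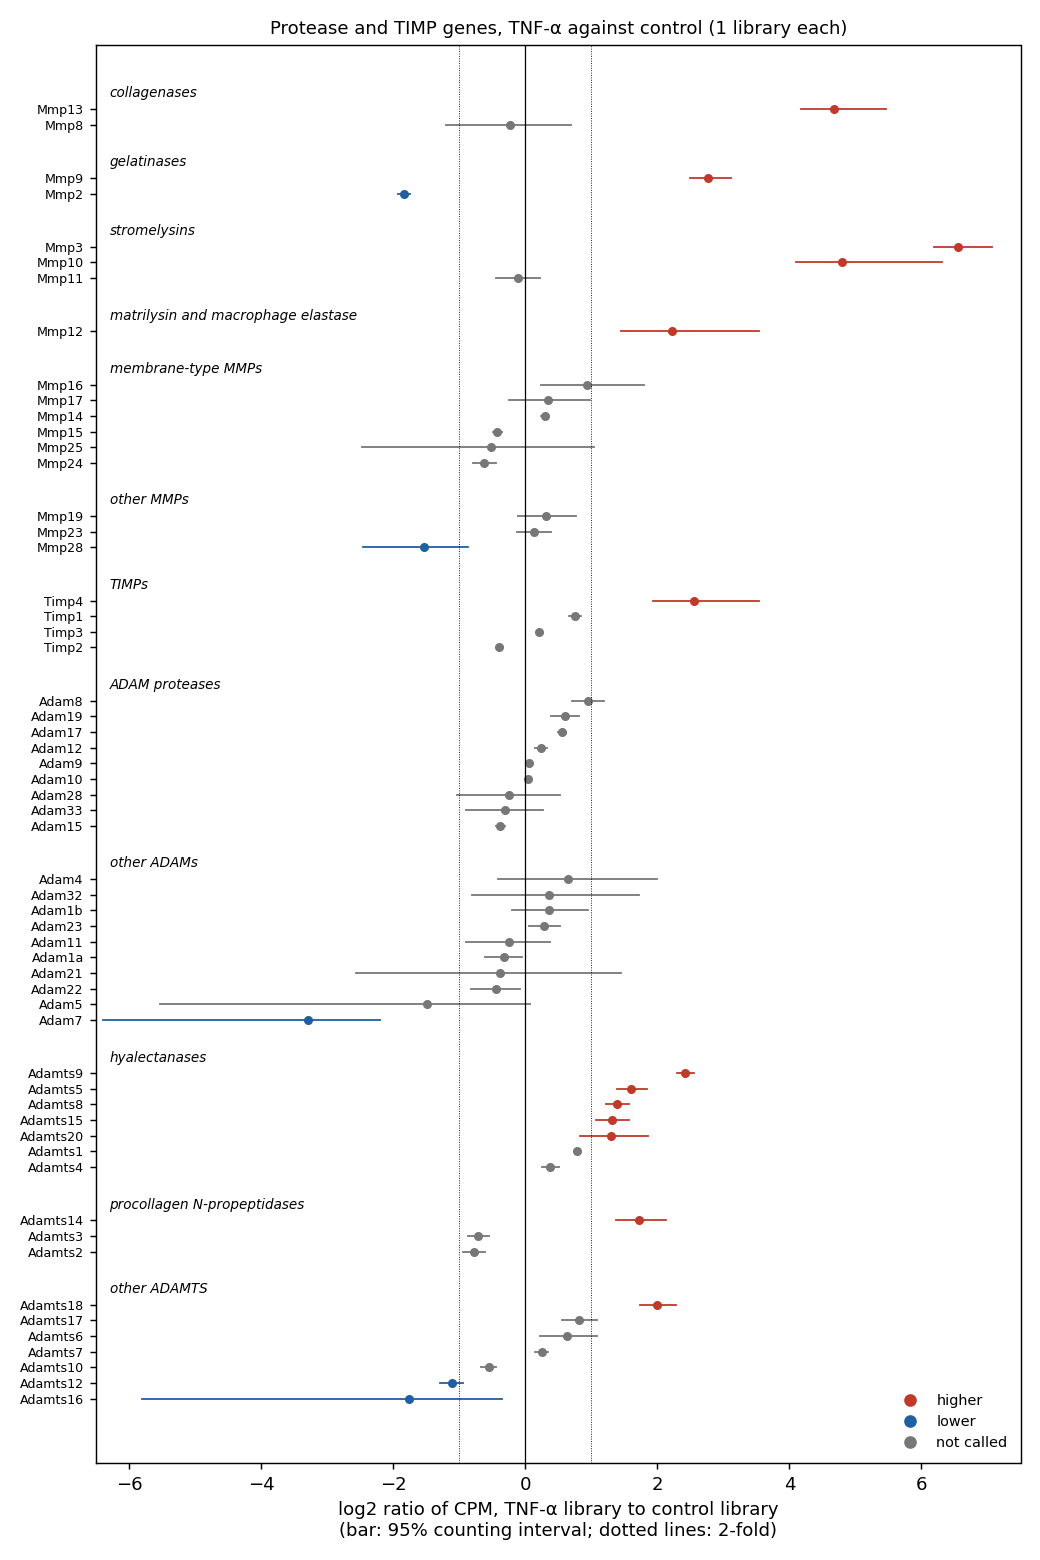
Log2 ratio of CPM (horizontal axis, TNF-α library to control library) for the 57 members with at least 10 counts, grouped by role, with 1 library per condition. Bars are 95% counting intervals, dotted lines mark 2-fold, and the bar of Adam7 has no lower end because it had 0 counts with TNF-α. The 13 genes called higher reach up to 6.56 for Mmp3.

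Stromelysins and collagenases gave the highest ratios of all members. Mmp3 encodes a stromelysin that cuts proteoglycans, laminin and fibronectin and activates other MMP precursors. It had 46 counts untreated and 5397 with TNF-α, a log2 ratio of 6.56 (95% interval 6.20 to 7.07). Its ratio lay at percentile 99.99 of all genes compared. Mmp10, the stromelysin closest to it in sequence, had 8 and 326 counts, a log2 ratio of 4.80 (4.09 to 6.31). The third gene with this name, Mmp11, encodes an enzyme with little activity on matrix proteins and differed little, with 146 and 162 counts and a log2 ratio of -0.11 (-0.44 to 0.22).

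Collagenases cut the intact triple helix of fibrillar collagen. Mmp13, the main interstitial collagenase of the mouse, had 22 counts in the control and 724 with TNF-α, a log2 ratio of 4.67 (4.17 to 5.46). The neutrophil collagenase gene Mmp8 had 21 counts in each library, a log2 ratio of -0.24 (-1.20 to 0.68), so a moderate difference in either direction was not detectable at this depth. Mmp1a had 1 and 4 counts and Mmp1b had 0 and 4, too few to compare. These genes are close copies of each other, and how reads that fit both were counted is not given in the sources used here.

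The macrophage elastase gene Mmp12, named for the cells in which it was first found, had 10 and 64 counts, a log2 ratio of 2.23 (1.45 to 3.55). Its CPM was 0.224 in the control and 1.20 with TNF-α, while the 9 macrophage and leukocyte markers together had the 8.23 and 6.54 CPM given above. Of its exon bases 157 overlap Mmp1b on the opposite strand, and counting by strand is not stated. The matrilysin gene Mmp7, an epithelial MMP in other glands, had 0 counts in both libraries.

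Gelatinases, which cut denatured collagen and the type IV collagen of basement membranes, went in opposite directions. Mmp9 had 97 counts in the control and 804 with TNF-α, a log2 ratio of 2.77 (2.49 to 3.11). Mmp2 had 4066 and 1364 counts, a log2 ratio of -1.83 (-1.93 to -1.75), or 3.57-fold lower with TNF-α. Mmp2 is known mainly as a product of stromal cells. Beside it, the 8 fibroblast markers had a median log2 ratio of 0.02, from -0.93 for Pdgfrb and -0.66 for Col3a1 to 0.15 for Col1a2 and 1.39 for Dcn, and the part of such cells in the value of Mmp2 was not tested.

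As a level per length, Mmp2 was 76.4 TPM in the control and 20.7 TPM with TNF-α. Mmp9 stood at 1.74 and 11.6 TPM, so the order of the gelatinases by level was the same in both libraries, with a much smaller distance in the TNF-α library.

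Membrane-type MMPs act at the cell surface, and 0 of the 6 were called. Mmp14, which activates the precursor of MMP2 together with TIMP2, had 5604 and 8213 counts, a log2 ratio of 0.29 (0.24 to 0.34). Mmp15 had 4244 and 3786 counts, a log2 ratio of -0.42 (-0.49 to -0.36). The lowest ratio of the group was that of Mmp24, with 621 and 483 counts and a log2 ratio of -0.62 (-0.80 to -0.45), and 13.6% of its exon bases overlap BC029722 on the opposite strand. Mmp16 stayed just under the 2-fold limit with 21 and 50 counts, a log2 ratio of 0.93 (0.23 to 1.80). Mmp17 and Mmp25, with 39 and 8 counts in the control and 60 and 6 with TNF-α, had intervals that include no change.

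Mmp28, which encodes the epidermal MMP epilysin, was lower with TNF-α. It had 52 and 20 counts and a log2 ratio of -1.54 (-2.46 to -0.87), and shares 12.03% of its exon bases with 1700020L24Rik on the opposite strand, which had 37 and 20 counts. Mmp19 and Mmp23 were not called, at log2 ratios of 0.32 and 0.13. Mmp23 was the better counted of them, with 232 and 304 counts. Mmp21 had 4 and 0 counts, and Mmp20, the enamel MMP, and Mmp27 had 0 in both libraries.

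The Mmp genes of the cluster lie on chromosome 9 of GRCm38 from 7272514 to 7699585, a stretch of 427 kb with 10 of the 23 MMP genes. Of these, 5 could be compared, and Mmp13, Mmp12, Mmp3 and Mmp10 were called higher. Mmp8, which lies beyond Mmp10, was not called, and the 3 last genes Mmp27, Mmp20 and Mmp7 had 0 counts. Within 500 kb on each side, 12 other genes were compared, their median log2 ratio was -0.08, and 2 were called higher. The first was Birc3, an inhibitor of apoptosis and NF-κB target, with 880 and 3735 counts and a log2 ratio of 1.82 (1.72 to 1.93). The other was the unnamed transcript RP23-350M23.5 with 10 and 59 counts. Birc2 next to Birc3 had a log2 ratio of 0.34, Yap1 of -0.09, and Dcun1d5 on the other side of the cluster of 0.31.

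**Figure D2:**
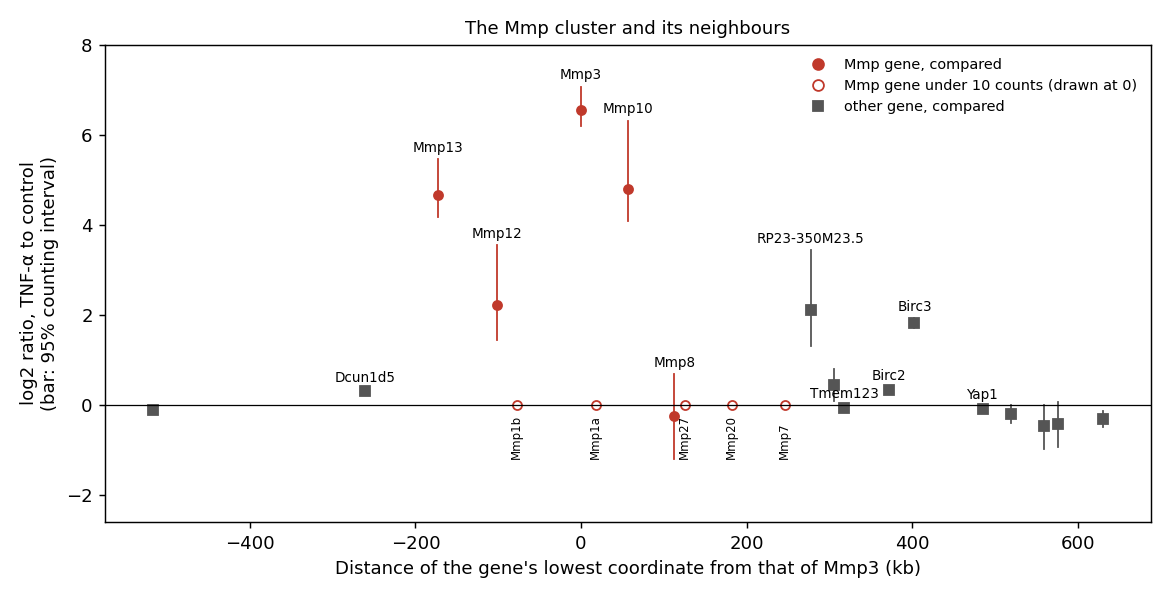
Log2 ratio (vertical axis, TNF-α to control) against the distance in kb of each gene from Mmp3 on chromosome 9 for the Mmp genes of the cluster (red) and other genes within 500 kb (grey squares), with 95% counting intervals as bars. Open circles are Mmp genes under 10 counts, drawn at 0. Mmp13, Mmp12, Mmp3 and Mmp10 lie above 2 and Mmp8 near 0.

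Summed over all MMP genes, the level was 235 TPM in the control and 362 TPM in the TNF-α library. Without Mmp3 the sums were 233 and 209 TPM, so the sum of the other MMP genes was lower with TNF-α. Mmp3 made up 0.689% of the summed MMP level in the control, as the gene at rank 8, and 42.4% with TNF-α, at rank 1. The share of Mmp2 went from 32.5% to 5.72%, that of Mmp14 from 35.1% to 27.0%, and that of Mmp15 from 21.2% to 9.92%. The MMP transcripts of the control library were thus mostly from Mmp14, Mmp2 and Mmp15, and those of the TNF-α library mostly from Mmp3 and Mmp14.

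Timp3, Timp2 and Timp1 were the members with the highest levels per length in the control, and Timp3 and Timp1 in the TNF-α library. Timp3, whose product binds to the matrix and also inhibits ADAM17, had the highest level of all members in both libraries, 279 TPM in the control and 309.8 TPM with TNF-α. It had 35853 and 49256 counts and a log2 ratio of 0.20 (0.18 to 0.22). Timp3 shares 1733 exon bases (21.3%) with Syn3 on the opposite strand, which had 16488 and 21910 counts, so the counts of both are uncertain.

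Timp1, an inhibitor of most secreted MMPs that is known to respond to inflammatory signals, had 1568 and 3168 counts. Its log2 ratio of 0.75 (0.67 to 0.84) stayed below the 2-fold limit. Timp2, which takes part both in inhibition of MMP2 and in its activation, had 8312 and 7534 counts, a log2 ratio of -0.40 (-0.45 to -0.36). Timp4 was the only TIMP gene called, with 16 and 123 counts and a log2 ratio of 2.55 (1.93 to 3.53). Its level stayed low, at 0.172 TPM in the control and 1.07 TPM with TNF-α, and 90 of its exon bases overlap Syn2 on the opposite strand, which had 102 and 512 counts.

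Summed TIMP levels were 526 TPM in the control and 593 TPM with TNF-α. Timp3 made up 53.0% and 52.3% of these sums, so the uncertainty of its counts carries over to them and to the ratio below. The ratio of summed TIMP to summed MMP levels was 2.24 in the control and 1.64 with TNF-α. Without Mmp3 this ratio went the other way, from 2.25 to 2.84, so its direction rests on that gene. These are transcript levels and say nothing of protein amounts or of enzyme activity.

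**Figure D3:**
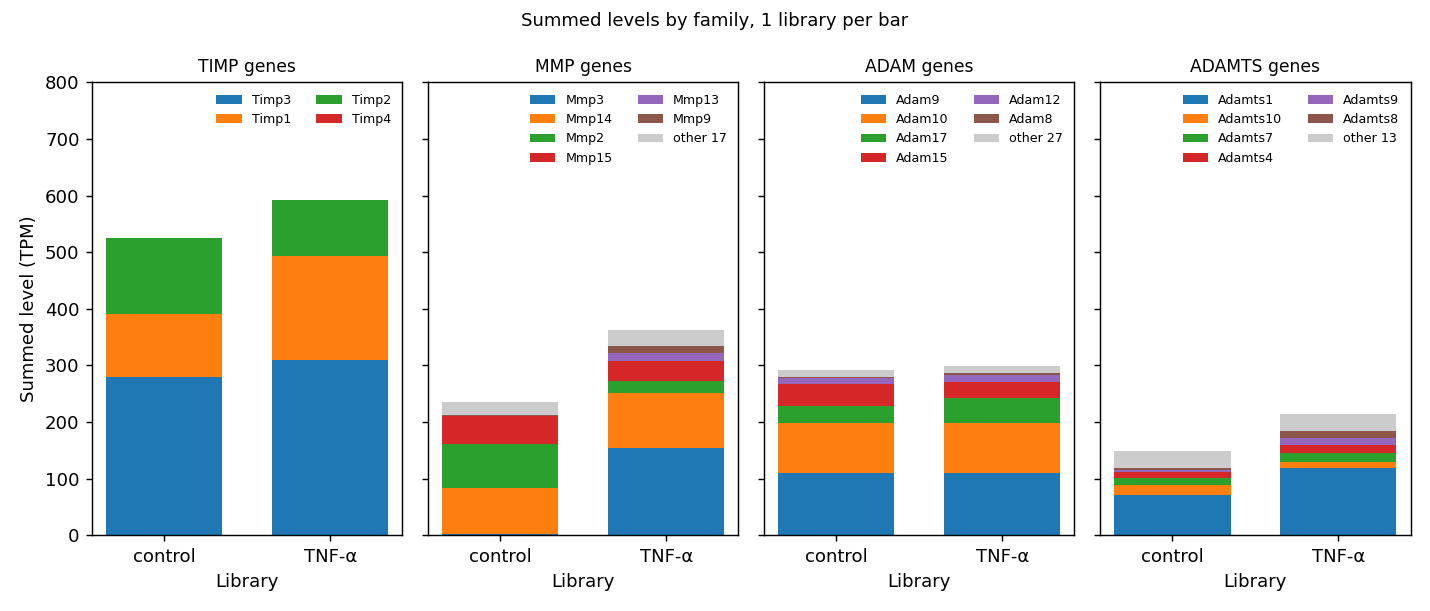
Summed level in TPM (vertical axis, from 0) of the TIMP, MMP, ADAM and ADAMTS genes in the control and TNF-α libraries, 1 library per bar and without error bars, with the 6 most abundant genes of a family in colour and the rest in grey. The MMP bar is 235 TPM in the control and 362 TPM with TNF-α, where Mmp3 forms 42.4% of it.

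**Figure D4:**
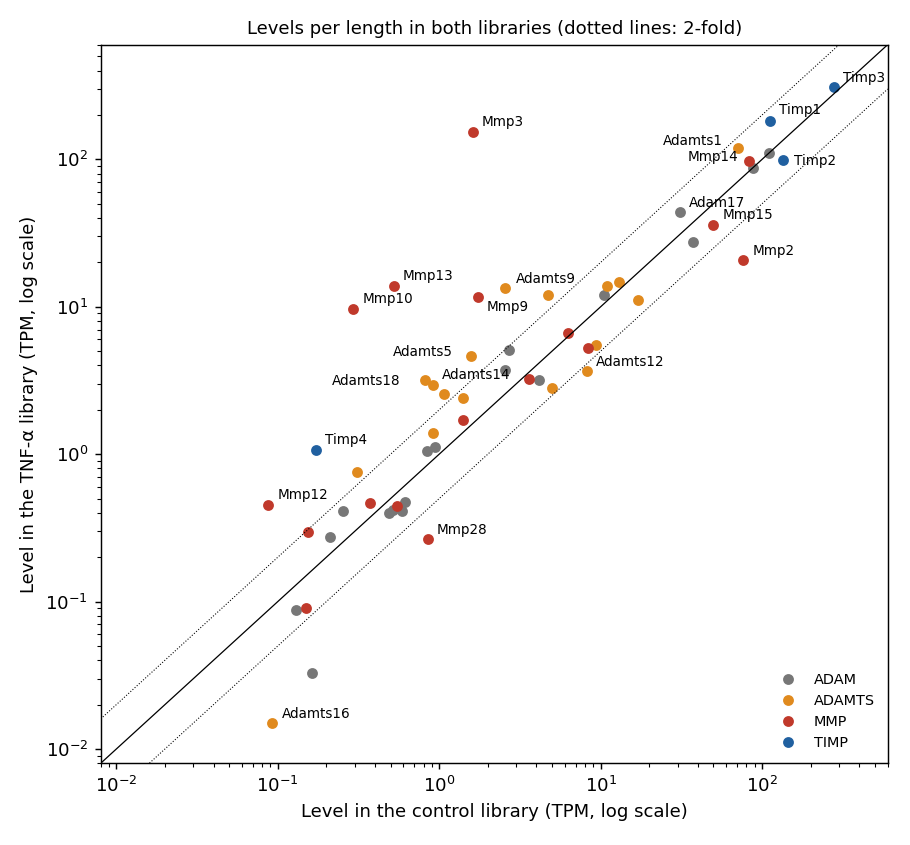
Level of each member in TPM in the control library (horizontal axis) and with TNF-α (vertical axis), both on log scales, coloured by family, for members with counts in both libraries, so that Adam7 is not drawn. The solid line is equality and the dotted lines are 2-fold. Mmp3 lies farthest from equality, at 1.62 and 153.5 TPM, and Timp3 has the highest level.

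The ADAM proteases, which shed growth factors, receptors and adhesion molecules from the cell surface, gave no call among 9 genes. Adam17, the sheddase that releases TNF-α from the cell surface, had 3484 and 6127 counts, a log2 ratio of 0.55 (0.49 to 0.62). Adam10, which cleaves Notch receptors and E-cadherin, had 6851 and 8431 counts, a log2 ratio of 0.04 (-0.0066 to 0.086). Adam9 also differed little, with 7142 and 8900 counts and a log2 ratio of 0.06 (0.01 to 0.10). With so many counts, the intervals of Adam9 and Adam10 leave room only for small differences between these libraries.

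Adam8, known from leukocytes and inflamed tissue, had the highest ratio of the group, with 199 and 460 counts and a log2 ratio of 0.94 (0.71 to 1.20), just under the 2-fold limit. Adam19 followed at 0.60 and Adam12 at 0.24. Adam15 had the lowest ratio, with 3617 and 3318 counts and a log2 ratio of -0.38 (-0.45 to -0.32), and 20.6% of its exon bases overlap 4731419I09Rik on the opposite strand. Adam28 and Adam33 had 30 and 52 counts in the control and 30 and 50 with TNF-α, and their intervals include no change.

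The other 24 ADAM genes are mostly known from testis and sperm or lack the zinc site of an active protease. Of these, 13 had 0 counts in both libraries and 10 could be compared. On chromosome 8, which holds 13 of the 33 ADAM genes, 9 had 0 counts. The best counted were Adam23, a surface protein of the nervous system with 267 and 390 counts and a log2 ratio of 0.29 (0.06 to 0.52), and Adam1a with 228 and 217 counts and a log2 ratio of -0.33 (-0.61 to -0.06). Adam1a overlaps Gm42878 on the same strand over 22.1% of its exon bases and resembles Adam1b, so its counts are uncertain. Adam22 was lowest among those with at least 200 counts, with 133 and 116 counts and a log2 ratio of -0.45 (-0.83 to -0.09).

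The epididymis gene Adam7 was the only ADAM gene called. It had 16 counts in the control and 0 with TNF-α, a log2 ratio of -3.29. Its counting interval had no lower end and an upper end of -2.21. With the count of 0 set to 3 counts it was 6.39-fold lower, a value that takes the 16 control counts as exact. Adam5 had 8 and 2 counts, and its log2 ratio of -1.49 (-5.53 to 0.07) was not called because the interval includes no change. Summed over all 33 genes, the ADAM level was 291 TPM in the control and 299 TPM with TNF-α.

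Hyalectanases are ADAMTS enzymes that cut the large proteoglycans versican and aggrecan. All 7 had a log2 ratio above 0 with a median of 1.31, and 5 were called higher. Adamts9 had the largest difference, with 608 and 3912 counts and a log2 ratio of 2.42 (2.30 to 2.55). It overlaps A730049H05Rik over 9.18% of its exon bases and also Gm15737, both on the opposite strand, which had 54 and 418 and 99 and 698 counts.

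Adamts5, a main aggrecanase of cartilage, had 200 and 733 counts, a log2 ratio of 1.61 (1.39 to 1.85). Adamts8 had 346 and 1089 counts, a log2 ratio of 1.39 (1.22 to 1.57), with RP23-62D21.4 (43 and 163 counts) on the opposite strand over 10.6% of its exon bases. Adamts15 had 175 and 521 counts, a log2 ratio of 1.31 (1.06 to 1.57). Adamts20, known from pigment cell migration in the mouse, had 44 and 133 counts, a log2 ratio of 1.30 (0.83 to 1.86), whose interval reaches below 2-fold.

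Adamts1 and Adamts4 were not called. Adamts1, which cuts versican and is the most abundant ADAMTS gene here, had 5969 and 12304 counts, a log2 ratio of 0.78 (0.74 to 0.83). As a level it stood at 71.3 TPM in the control and 119 TPM with TNF-α, the fourth highest of all members there. Adamts4 had the lowest ratio of the group, with 837 and 1299 counts and a log2 ratio of 0.37 (0.25 to 0.50). Summed over the 7 genes, the level was 92.6 TPM in the control and 166 TPM with TNF-α.

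Some hyalectanase genes form neighbouring pairs in the genome, while Adamts4, Adamts9 and Adamts20 lie on chromosomes 1, 6 and 15. Adamts8 and Adamts15 lie 20.1 kb apart on chromosome 9, and Adamts1 and Adamts5 lie 55.1 kb apart on chromosome 16, with 0 genes of the table between them. In the first pair both genes were called, and in the second pair Adamts5 was called and Adamts1 was not.

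Procollagen N-propeptidases remove the amino-terminal propeptide of fibrillar procollagens and differed among themselves. Adamts14 was called higher with 75 and 301 counts and a log2 ratio of 1.72 (1.38 to 2.13). Adamts2, the enzyme of type I procollagen in skin, had 737 and 514 counts, a log2 ratio of -0.78 (-0.94 to -0.62), and Adamts3 had 798 and 583 counts at -0.71. Neither passed 2-fold. By level per length, Adamts14 was below Adamts2 in the control, 0.914 against 4.999 TPM, and close to it with TNF-α, 2.97 against 2.82 TPM.

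Among the other ADAMTS genes, Adamts18 was called higher. It is known from the mammary gland, where it acts on the matrix around basal cells. It had 132 and 635 counts and a log2 ratio of 1.99 (1.73 to 2.29). Adamts12, an enzyme that cuts cartilage oligomeric matrix protein, was called lower with 808 and 445 counts and a log2 ratio of -1.12 (-1.29 to -0.95), an interval that includes 2-fold. Adamts16 was also called lower, from 10 and 2 counts, a log2 ratio of -1.76 (-5.81 to -0.35) that so few counts leave wide. Adamts17, Adamts6, Adamts7 and Adamts10 were not called, at 0.81, 0.63, 0.24 and -0.56. Adamts13, which cuts von Willebrand factor and is made in the liver, had 3 and 1 counts, and Adamts19 had 0.

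Genes that control MMPs were taken as a list of 20 outside the named families. Of them 5 were called higher and 0 lower, with a median log2 ratio of 0.42. Among those called were A2m, a protease inhibitor of plasma, at 1.13 (0.26 to 2.33) from 12 and 34 counts, and the proprotein convertase Pcsk6 at 1.09 (0.87 to 1.32). The convertase Pcsk5 at 1.02 (0.86 to 1.18) and the matrix gene Thbs2 at 1.06 (0.94 to 1.18) were also called. Each of these intervals reaches below 2-fold. The plasminogen activator gene Plau had a log2 ratio of -0.04. The lowest was Reck, a membrane inhibitor of MMPs, with 211 and 145 counts and a log2 ratio of -0.79 (-1.12 to -0.49), which was not called.

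Partners of ADAM10 and ADAM17 gave 1 call among 8 compared. Tspan33, a tetraspanin that binds ADAM10, was lower with 86 and 44 counts and a log2 ratio of -1.19 (-1.79 to -0.69). Rhbdf2, which carries ADAM17 to the cell surface, was highest at 0.45 with 681 and 1113 counts, and was not called. The transcripts of 20 proteins that ADAM10 and ADAM17 shed were more varied, with 4 called higher, 3 lower and a median of 0.14. The adhesion gene Vcam1 had 439 and 7905 counts, Tnf had 112 and 1156, Tnfrsf1b had 18 and 207, and Icam1 had 5351 and 15121. Lower were Areg, the epidermal growth factor receptor ligand of duct growth, with 3126 and 722 counts and a log2 ratio of -2.37 (-2.49 to -2.26), Il6ra with 447 and 144, and Notch1 with 13875 and 7502.

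The substrates and relatives of ADAMTS enzymes, pooled in 1 list, had a median log2 ratio of -0.43 over 16 genes compared, against 0.78 for the ADAMTS genes. With at least 200 counts in sum the medians were -0.19 and 0.78. Of the 16, 2 were higher and 4 lower. The 2 higher were substrates, while of the 4 lower all but Acan were relatives. The pooled medians therefore do not describe the substrates alone. The substrate Acan, which encodes aggrecan, had 54 and 7 counts, a log2 ratio of -2.86 (-4.59 to -2.07), and Vcan, which encodes versican, had 5564 and 7347 counts, a log2 ratio of 0.14. Papln, Adamtsl1 and Adamtsl2, which resemble ADAMTS enzymes without their protease domain, were lower at -1.07, -1.86 and -2.08. The small proteoglycan gene Dcn was higher, with 184 and 582 counts and a log2 ratio of 1.39 (1.16 to 1.65), and Ncan had 0 and 12 counts.

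Proteases of other families gave 0 higher and 2 lower of 16 compared, with a median of 0.03. Lower were Dpp4 with 169 and 66 counts and Htra1 with 3051 and 1799, at log2 ratios of -1.58 and -1.02. The highest was the surface peptidase Mme, a basal cell marker known as CD10, with 6326 and 11770 counts and a log2 ratio of 0.64 (0.59 to 0.68). Cathepsins B, D and L had log2 ratios between -0.10 and 0.46.

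Genes of the factors AP-1, NF-κB and ETS gave 2 higher and 2 lower of 16, with a median of 0.0070. Higher were the NF-κB subunit genes Relb with 585 and 1937 counts and Nfkb2 with 2294 and 6624, at log2 ratios of 1.46 and 1.27. Lower were the AP-1 genes Fos with 11006 and 4702 counts and Fosb with 1115 and 311, at -1.49 and -2.09. The median pools these families. Of the AP-1 genes not called, Jun had 38019 and 27762 counts, a log2 ratio of -0.71. Jund, Fosl2, Junb and Fosl1 lay at -0.53, -0.30, -0.06 and 0.21. The NF-κB genes Rel, Nfkb1 and Rela, also not called, lay at 0.77, 0.08 and -0.10. Over the 6 lists together 13 of 95 genes compared were higher and 12 lower, where 7.39% and 5.89% of all genes were called.

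**Figure D5:**
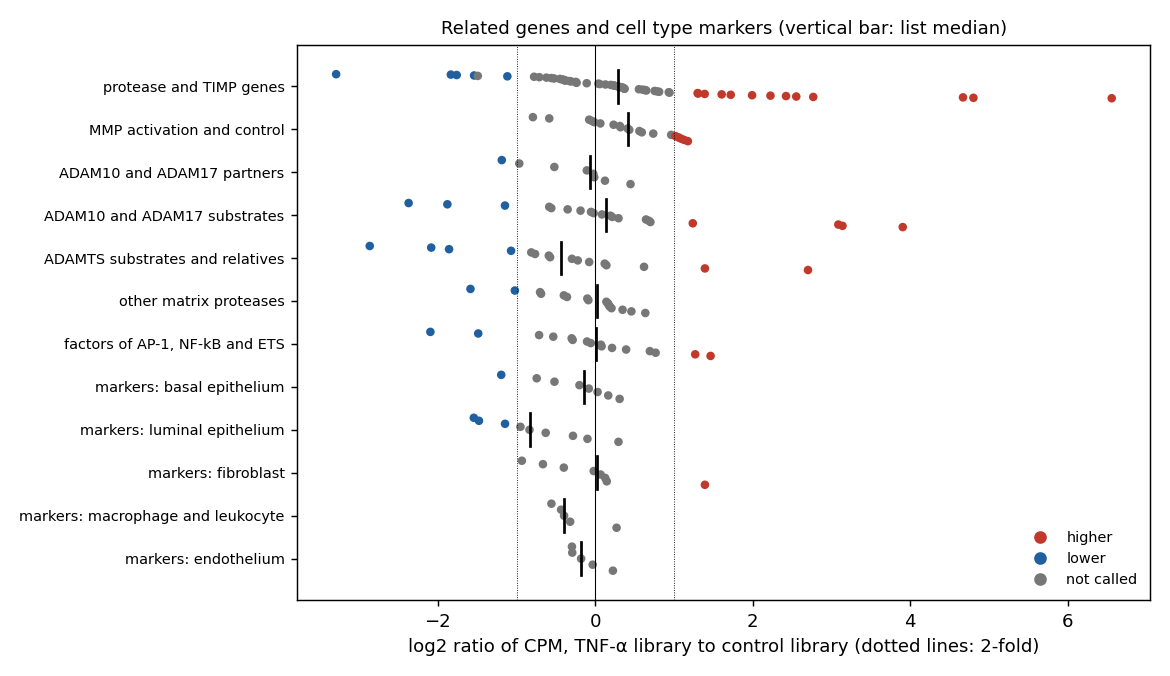
Log2 ratio of CPM (horizontal axis, TNF-α library to control library) of each gene compared in the named families, in 6 lists of related genes and in 5 lists of cell type markers, with vertical bars at list medians and dotted lines at 2-fold. The named families have a median of 0.29 and reach 6.56, and the 5 macrophage and leukocyte markers compared all lie within 2-fold.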

How the data were processed

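RNA-seq was performed on basal cell colonies, with 1 control library and 1 library of TNF-α treated cells. The authors deposited raw read counts per gene, without normalization, with the exon coordinates and summed exon length of each gene. The genome build, GRCm38 (mm10), is that of the submitters' processing notes, and 69 of the 79 members had the same start and end in GENCODE M21. The aligner, the counting tool, the annotation and the use of strand are not given in the sources used here. The layout of the table is that of featureCounts. Genes with 2 counts outnumbered those with 1 (2172 against 618 in the control), the pattern left when read ends are counted singly, so intervals may be too narrow, and counts divided by 2 were run as an alternative. The title of the series names a microarray, while the deposited values are sequencing counts. A count of 10 was worth 0.224 CPM in the control and 0.187 CPM with TNF-α.

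Library sizes were scaled by TMM (edgeR 4.0.16, R 4.3.3) over genes with at least 10 counts in sum, a choice made after the values over all genes had been seen. Log2 ratios of CPM used a prior count of 2. Intervals are 95% Clopper-Pearson intervals of the TNF-α share of a gene's counts. A gene with 0 counts was set to a floor of 3 counts for a bound. With 1 library per condition, the quasi-likelihood model of edgeR could not be fitted, and no p-value was computed. TPM was computed from the deposited counts and exon lengths. The ratio code was tested on simulated data. Alternatives were library totals, DESeq2 (1.42.0) size factors, upper quartile scaling, TMM over all genes, other filters, prior counts and folds, the fold alone and halved counts. Scripts ran in Python 3.11.15 with matplotlib 3.10.9, scipy 1.17.1, pandas 2.3.3 and numpy 2.4.6.

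Full values are given for each member called, the highest and lowest of a role with at least 200 counts, the 10 members with the most TPM in a library and the TIMPs, and, from each list of other genes, for the highest, the lowest and up to 6 called. The members, roles and lists were chosen with earlier results of these data known. Other genes (Plau, Birc2, Yap1, Dcun1d5, Vcan, Notch1 and cathepsins among them) were added after their values were seen. Planned protein sequence features were not analysed here. For 1 list of other genes, the highest value is not reported here.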

Additional observations from a re-analysis of the deposited data

How the results depend on the processing

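No paired analysis was possible because only 1 library was made per condition, for which reason none could be left out either. The 13 members called higher were called under all 4 other scalings, with no filter, with at least 1 CPM in a library, with halved counts, with both prior counts and with the fold alone. With at least 200 counts 10 of them remained among 38 tested, under a filter that TNF-α counts alone can pass. A fold of 1.5 gave 20 higher, which include the 13, and 8 lower instead of 5. The number lower was 2 with at least 200 counts, 3 with at least 1 CPM and 3 with halved counts, as fewer genes with few counts were tested, and 6 with the fold alone. The median log2 ratio lay between 0.26 and 0.33. Among the values of single members, Adam7 alone left its interval, at -2.17 with a prior count of 5, and 0 reversed. The scalings shifted all log2 ratios by at most 0.0089, and TMM over genes with at least 10 counts was put in place of TMM over all genes after seeing the data. The spread between cultures was not measured. Calls for Mmp3, Adamts20, Mmp10, Mmp12, Mmp13, Timp4 and Mmp28 rest on few counts in at least 1 of the libraries. Those for Adam7 and Adamts16 rest on few counts in both.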
